A study of Homo sapiens with 18 samples.

Results

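The genes described here are those whose RNA fell at least 2-fold over 48 h of Wnt3a in H1 human embryonic stem cells and that are absent from the table of genes the authors followed in SP5 mutant clones. Members were selected on measured values. A member had a (RPKM + 1) ratio of 48 h to 0 h of at most 0.5, a highest RPKM of at least 6 and no entry in the mutant table, and genes whose symbols start with SLC, COL, LAM, ITG, EPH, EFN, SEMA or KIF were left out. RPKM scales the reads of a gene to the length of its transcript and to the number of mapped reads. Of 10975 listed genes, 324 reached that ratio and 239 of them also reached the RPKM minimum. The mutant table held 90 of the 239, 6 of the remaining 149 belonged to the families left out, and 143 genes were members.

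The study asked how WNT signaling changes gene expression in pluripotent cells and which part SP5 plays. H1 is an established embryonic stem cell line, and the cells were unmodified (WT) cells grown in E8 medium without feeder cells. Total RNA of the first WT series was depleted of ribosomal RNA and sequenced, with 1 library for each time point. The cells had no Wnt3a (labelled 0 h) or 12, 24 or 48 h with 1 nM of it. The study's supplement describes the 0 h cells as kept in Wnt storage buffer for 48 h, so 0 h stands for a control without Wnt3a. SP5 ChIP-Seq was deposited as 2 peak lists, labelled as untreated H1 cells and H1 cells given Wnt3a for 24 h. Both list headers, however, name the same Wnt3a-treated ChIP library and an h9 source, and they differ in the control library, buffer-treated in one and Wnt3a-treated in the other.

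Because there is 1 library per time, no difference between times has a replicate check and no test across genes was made. The second WT series and the SP5 mutant clones cannot be consulted for these genes, since the mutant table of 497 genes lists none of them. Read counts are not given with the RPKM values, so the depth behind each value is unknown. The 4 columns summed to between 386320 and 393761 RPKM over the table. The 12 markers of undifferentiated cells, all listed, summed to 3558, 3330.5, 2912 and 2481 RPKM in time order. LIN28A, the largest part of that sum, went from 1014.1 at 0 h to 784.7 at 48 h. SALL4 rose from 119.2 to 132.1 and NANOG was at 3.3 and 3.4, while the others of that list were lower at 48 h than at 0 h. POU5F1 was at 294.6, 323.7, 300 and 243.1, so it was lower only at 48 h. The 11 mesendoderm markers went from 11.1 to 222, 1140.2 and 1093, and the 7 listed definitive endoderm markers from 12.3 to 17.1, 54.9 and 326. From 24 to 48 h the mesendoderm markers MIXL1, NODAL, GSC, T and FGF8 fell, MIXL1 from 271.1 to 76.4. The others of that list rose, CER1 from 466.7 to 634. The 4 listed fibroblast markers summed to 218, 147, 126 and 125, of which THY1, which stem cells also express, made up most. Only 3 of 8 neural ectoderm markers were listed, without PAX6 and SOX1, and these summed to 155, 134, 192 and 253. From 0 to 48 h OTX2 went from 49.4 to 137.6 and ZIC2 from 91.8 to 111.5, while SOX3 fell from 14.2 to 3.7. None of these markers was a member. In whole-culture RNA, fewer cells that express a gene and less of its RNA per cell cannot be told apart.

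Wnt3a stabilizes β-catenin, which moves to the nucleus and acts with TCF/LEF factors on target genes. In human embryonic stem cells this drives exit from the pluripotent state towards mesendoderm and then endoderm. SP5, itself a WNT target, belongs to the SP/KLF zinc-finger family, whose members bind GC-rich elements called GC boxes. Many stem cell genes go down during this exit.

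The sequences that bear most directly on the members are the SP5 summit windows next to a member's start site, since SP5 is the factor whose binding was mapped. Each window below covers 151 bases centred on a MACS summit, on the plus strand of GRCh37 (hg19), and capitals mark the GC box GGGCGG and the variant GGGAGG as well as the variant GGGTGG on either strand. The first window lies at chr1:6305851-6306001, 1687 bases downstream of the HES3 start site and beyond the annotated 3′ end of that gene. The second lies at chr11:45943813-45943963, in the first intron of GYLTL1B (LARGE2 in the annotation), 716 bases from its start site.
HES3: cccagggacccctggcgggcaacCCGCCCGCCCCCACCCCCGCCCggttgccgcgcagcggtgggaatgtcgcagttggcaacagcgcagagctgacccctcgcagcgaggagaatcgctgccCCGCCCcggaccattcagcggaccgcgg
GYLTL1B: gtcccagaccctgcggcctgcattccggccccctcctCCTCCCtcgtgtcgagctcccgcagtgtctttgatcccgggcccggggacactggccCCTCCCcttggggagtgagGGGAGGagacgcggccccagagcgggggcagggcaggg
The HES3 window held 4 matches to GGGCGG and 1 to GGGTGG. The GYLTL1B window held 3 matches to GGGAGG and none to GGGCGG. Over all summits called against the Wnt3a-treated control, 35.4% of windows of this length held GGGCGG, 42.5% GGGAGG and 26.3% GGGTGG, and 3 or more matches to GGGCGG occurred in 7.61%.

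The fall was modest in most members. Of the 143, 100 had a 48 h ratio between 0.4 and 0.5, 27 between 0.25 and 0.4, and 16 a ratio of at most 0.25. Low levels were common among them. The median RPKM at 0 h was 11.6 in the members, 17.5 in the 9123 genes that could have been members by level, table and family, and 19.25 in the 90 lowered genes of the mutant table. The highest RPKM lay under 10 in 51 members, between 10 and 30 in 69, between 30 and 100 in 18 and at 100 or more in 5.

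The thresholds cut through a continuous distribution. Exactly 0.5 was the ratio of 7 members, C20orf96, CLDN10, FGF2, GNAO1, RCN3, TCFL5 and TSPO. Just outside were NOP16 with a ratio of 0.502, LOC100288413 with 0.503 and EIF5B with 0.503, and 94 genes had ratios above 0.5 and up to 0.55. At the RPKM minimum, FXYD1 and KHK, both with a highest RPKM of 6.0, and HCST with 6.1 were just inside. C16orf92, C19orf73 and GDF15, each with a highest RPKM of 5.9, were just outside.

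The time at which a member reached the 0.5 ratio depends on how far below it the member ended. By 12 h, 7 members had a ratio to 0 h of at most 0.5, a further 18 reached it by 24 h, and 118 were at or under it only at 48 h. At 48 h, however, 100 of the 143 members lay between 0.4 and 0.5, which leaves little room to pass the ratio earlier. Measured instead by the midpoint between each member's 0 h and 48 h values, 42 had passed it by 12 h, a further 53 by 24 h and 48 only at 48 h. Among the 9123 genes that could have been members, 0.384% were at or under that ratio at 12 h, 0.581% at 24 h and 1.57% at 48 h, the last being the members themselves. The 35 genes behind the 12 h share include 7 members, and the 53 behind the 24 h share include 21. At 12, 24 and 48 h the members had median log2 changes of -0.31, -0.54 and -1.17, where all genes that could have been members had -0.01, -0.02 and -0.02. These changes are on the log2(RPKM + 1) scale, which understates the fall of low genes.

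**Figure D1:**
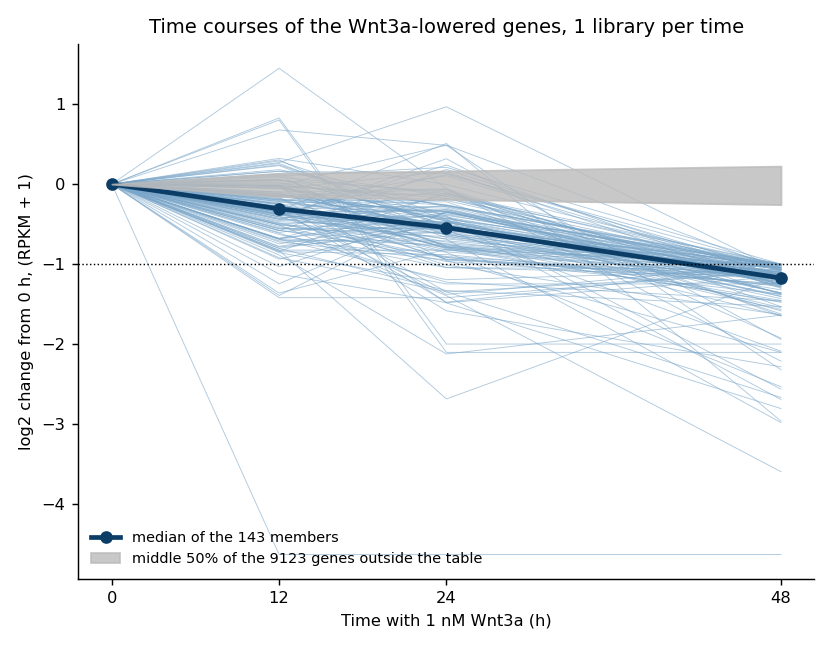
Each thin line is the log2 change of (RPKM + 1) from 0 h in 1 of the 143 members against time with 1 nM Wnt3a in hours, the thick line is their median, the grey band holds the middle 50% of the 9123 genes outside the mutant table, and the dotted line marks a change of -1. The median runs to -0.31, -0.54 and -1.17 at 12, 24 and 48 h, and the lines below the dotted line at 12 and 24 h are the 7 and 21 members that were at or under a ratio of 0.5 at those times.

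The path to 48 h was not the same in all members. In 72 of 143 members (50.3%) RPKM was lower at each successive time, against 9.14% of all genes that could have been members. The rule fixed the order of 0 h and 48 h in the members alone, so this contrast follows in part from the selection. In the 90 lowered genes of the mutant table, 70 (77.8%) were lower at each successive time and 30 (33.3%) were at or under a ratio of 0.5 at 24 h, against 21 members (14.7%). That list was drawn up by the authors from differential expression in this experiment, and no test of the difference was made. RPKM peaked at 0 h in 110 members, at 12 h in 23 and at 24 h in 10. It was lowest at 48 h in 129 members. Among the 9123 genes that could have been members, 2605 were highest at 0 h. Members were chosen for a 48 h value well below that at 0 h, so these counts follow largely from the rule.

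The step from 12 to 24 h compares 2 libraries whose ratio the rule did not use. Of the 143 members, 103 (72.0%) had a lower RPKM at 24 h than at 12 h, against 50.2% of the 9123 genes. The median log2 change over this step was -0.25 in the members and -0.00438 in all those genes. The RPKM minimum can be met at 12 or 24 h alone, as it was by the 7 members with under 6 RPKM at 0 h. In the 136 members with at least 6 RPKM at 0 h, 97 (71.3%) were lower at 24 h than at 12 h, against 51.3% of the 8383 genes outside the table with that level.

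**Figure D2:**
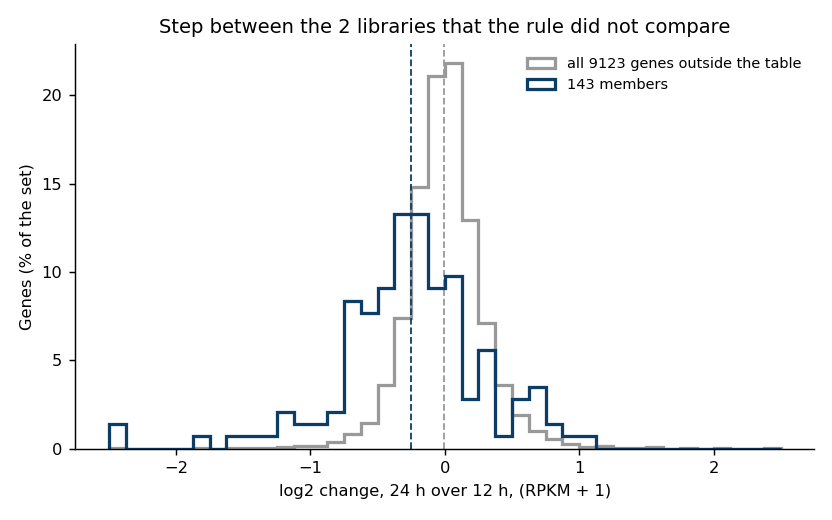
The histogram gives the share of genes, in percent of each set, against the log2 change of (RPKM + 1) from 12 h to 24 h, for the 143 members and for all 9123 genes outside the mutant table, with dashed lines at the medians and values beyond the axis placed in the end bins. The members' median lies at -0.25 and the median of all genes near 0.

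The 7 members at or under the 0.5 ratio at 12 h were a mixed set. SNHG9, the host transcript of a small nucleolar RNA, was listed at 23.8 RPKM at 0 h and at 0 at 12, 24 and 48 h. MYCNOS, an antisense transcript of MYCN, was at 8.1, 2.4, 2.4 and 3.3 RPKM at 0, 12, 24 and 48 h. VEPH1 was at 9.9, 4.0, 2.9 and 3.9. These 3 members were at or under a ratio of 0.5 in all 3 treated libraries. MYCN itself, which is in the mutant table and overlaps MYCNOS on the opposite strand, went from 104.8 RPKM at 0 h to 57.8, 43.7 and 48.1. How the counting treated strand is not given in the sources used here, so reads of the pair may not be separated.

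The other 4 early members were back above the ratio at 24 h. CCL26, a chemokine, was at 11.6, 3.8, 9.0 and 3.9 RPKM in time order. SH2D2A, an adaptor with an SH2 domain, was at 6.2, 1.8, 3.1 and 1.6. RTN4RL2, a receptor related to the Nogo receptor, was at 7.3, 2.5, 5.5 and 2.6. RPP21, a protein of ribonuclease P, was at 17.2, 7.9, 13.3 and 6.7. The 24 h library was thus higher than both its neighbours in all 4.

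At the other end were members that were higher at 24 h than at 0 h. MAP1LC3B2, a gene of the LC3 autophagy family, was at 5.8, 7.2, 12.3 and 2.2 RPKM. CD52, a small glycosylphosphatidylinositol-anchored surface protein best known from lymphocytes, was at 6.8, 5.2 and 10.1 and was listed at 0 at 48 h. RPS26, a ribosomal protein of the small subunit, was at 15.4, 15.2, 22.0 and 6.8. Only 12 members were above their 0 h value at 24 h, and 25 were above it at 12 h. In these 3 genes the entire fall falls between the 24 h and 48 h libraries.

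By known function the members were grouped after their values had been seen, so the groups are a description. The largest group with a shared role held 21 genes of ligands, receptors and intracellular signalling. Mitochondrial and metabolic genes numbered 17, regulators of development and stem cell genes 15, genes of the ribosome, translation and RNA processing 13, and neuronal, secretory and ion transport genes 12. Another 33 had a role that fits none of the groups or is not known well. No group had a median log2 change at 48 h outside the range from -1.38 in the genes named for immune cells to -1.05 in the glycosylation and matrix genes.

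**Figure D3:**
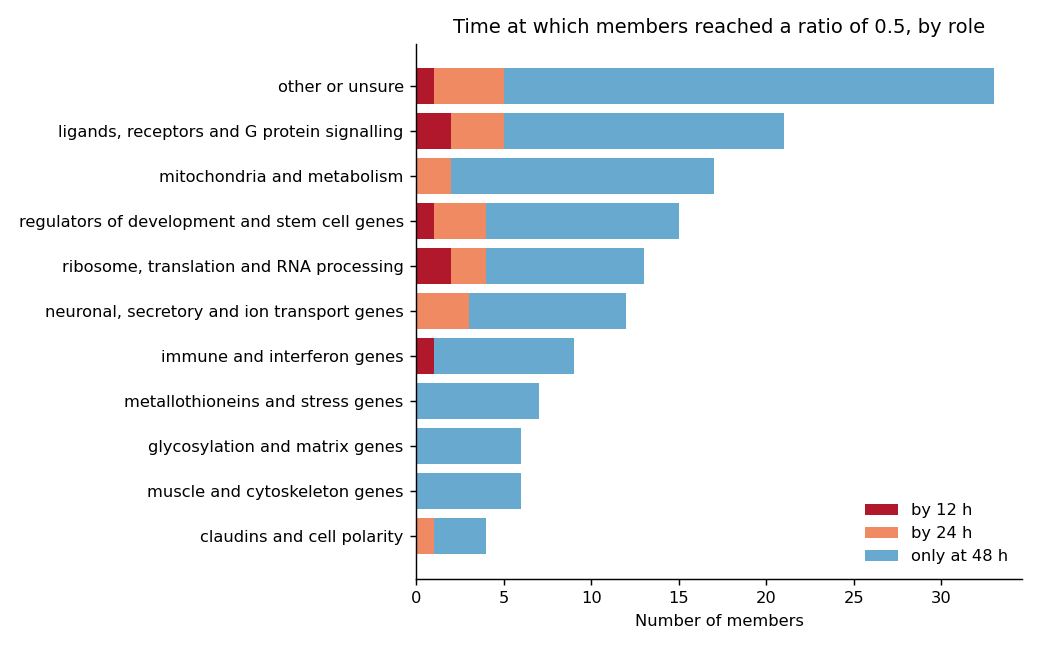
Bars count the members in each role group, split by the first time at which the (RPKM + 1) ratio to 0 h was at most 0.5. The 118 members that reached it only at 48 h make up most of every group, and no metallothionein, matrix or cytoskeleton gene reached it earlier.

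Symbol lists drawn up for the whole table give the background for these groups. Of 32 listed pluripotency and primed stem cell genes that could have been members, 4 were members (12.5%), against 1.57% of all genes that could have been. These 4 were DPPA5, CUZD1, FGF2 and VSNL1, the last of which is placed with the neuronal genes by role. The list of small noncoding RNA and their host genes gave 2 of 13 (15.4%), SNHG9 and SNHG12. Immediate early and stress genes gave 5 of 41 (12.2%), which were the metallothioneins MT1H, MT1G and MT1X as well as DDIT4L and CTGF. Neural and ectoderm regulators gave 2 of 17 (11.8%) and G protein coupled receptors and their regulators 5 of 76 (6.58%). Zinc-finger genes of the ZNF and ZSCAN types gave 3 of 387 (0.775%), other transcription factor and chromatin genes 1 of 164 (0.610%), and hypoxia and glycolysis genes none of 21. The lists were made with results of these data known and include genes chosen for being lowered, so these shares are descriptions.

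CUZD1 is grouped here with the stem cell genes. It was at 6.8, 5.3, 1.6 and 0.6 RPKM at 0, 12, 24 and 48 h, and its 48 h level was 8.82% of that at 0 h. DPPA5, an RNA-binding protein of pluripotent cells, was at 4.0, 7.0 and 6.0 RPKM and was listed at 0 at 48 h, so it became a member through its 12 h level. FGF2, the growth factor that E8 medium supplies to keep stem cells undifferentiated, was at 38.0, 34.1, 29.2 and 18.5 RPKM and lay exactly at the ratio of 0.5. TRIML2 was at 27.3, 17.5, 11.1 and 9.3. None of the first 3 was at its lowest before 48 h, and CUZD1 and TRIML2 had passed the 0.5 ratio by 24 h.

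HES3 had the largest fall among the transcription factors of the set. It is a basic helix-loop-helix repressor of the HES family, which acts in neural progenitors. HES3 stood at 15.8, 11, 8.3 and 1.9 RPKM at 0, 12, 24 and 48 h. The last value is 12% of the first and a log2 change of -2.53. Each library was lower than the one before. IRX2, an Iroquois homeobox factor, was at 10.7, 11.8, 7.2 and 4.8, so its fall began only after 12 h.

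Other regulators fell less. ZNF550 was nearly level until 24 h, with 10.6, 9.5 and 10.1 RPKM, and then stood at 1.5 at 48 h. SNAI3, a member of the SNAIL zinc-finger family, was at 12, 7.4, 5.3 and 5.2. TCFL5, a basic helix-loop-helix factor, was at 11.6, 10.3, 10.6 and 5.3. The long noncoding RNA RMST, known from neural differentiation, was at 5.7, 6.6, 4.5 and 1.9. KAT5, the catalytic subunit of the TIP60 acetyltransferase complex, was at 8.1, 7.8, 4.3 and 3.5.

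Several members encode secreted signals. INHBE, which encodes an activin subunit of the TGFβ family, fell from 10.7 RPKM at 0 h to 8.0, 7.8 and 2.9. Pleiotrophin (PTN), a heparin-binding growth factor, was at 28.7, 26.3, 21.1 and 13.4. BDNF, a neurotrophin, was at 6.3, 6.6, 4.3 and 2.5, and the chemokine CXCL6 was at 9.0, 5.2, 4.3 and 3.2. WFIKKN1, a secreted protein that binds TGFβ-family ligands such as myostatin, was at 11.1, 9.7, 5.9 and 5.0. CTGF, a matrix-associated protein and a common YAP target, held its level at 12 h with 11.6 RPKM against 11.8 at 0 h, and then stood at 6.5 and 4.9.

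The receptors and their regulators included several that fell by 24 h. GPR27, an orphan G protein coupled receptor, was at 9.9, 4.9, 1.5 and 2.5 RPKM. RGS17, which speeds GTP hydrolysis on Gα subunits, was at 11.1, 8.5, 5.0 and 2.9. RAMP2, an accessory protein of the calcitonin receptor-like receptor, was at 11.8, 9.8, 3.6 and 5.3. GPR27 and RAMP2 were higher at 48 h than at 24 h. The adrenergic receptor gene ADRA2B was at 6.8, 5.4, 3.5 and 1.8, and GNAO1, the Gα subunit most abundant in brain, was at 7.4, 6.4, 5.2 and 3.2.

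The most abundant member acts inside the cell. PEBP1, the RAF kinase inhibitor protein, was at 487, 491.9, 406.6 and 238.6 RPKM. Its loss of 248.4 RPKM was the largest of the 143. PRKAR2B, a regulatory subunit of protein kinase A, was at 25.3, 18.8, 16.8 and 10.5, and the kinase SGK1 was at 7.8, 4.9, 3.7 and 2.9. CDK14, a cyclin-dependent kinase that phosphorylates the WNT coreceptor LRP6, was at 13.0, 10.7, 7.1 and 5.8.

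**Figure D4:**
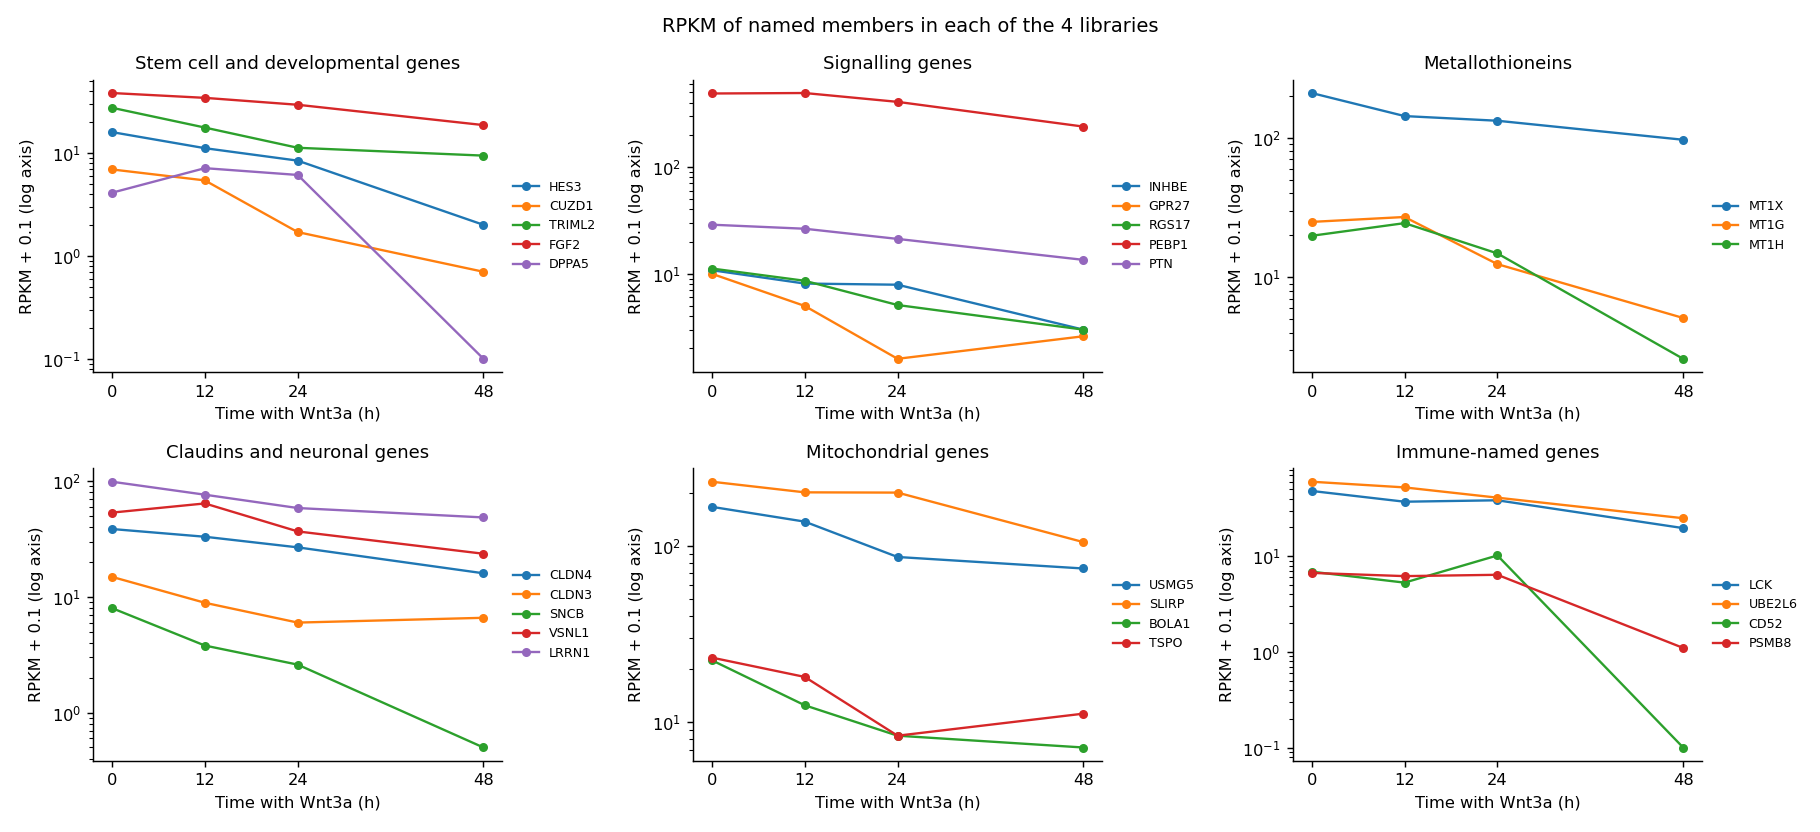
RPKM plus 0.1, on a log axis, is plotted against time with Wnt3a in hours for named members in 6 groups, with 1 point per library. PEBP1 starts at 487 and ends at 238.6, HES3 ends at 1.9, MT1H at 2.5, and CD52 and DPPA5 are listed at 0 at 48 h, drawn at 0.1.

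Of the 5 listed metallothioneins, 3 were members. They are small cysteine-rich proteins that bind zinc and copper, and their genes lie side by side on chromosome 16. MT1X was at 208.8, 142.7, 132.1 and 96.5 RPKM at 0, 12, 24 and 48 h. MT1G was at 24.8, 26.9, 12.3 and 5.0, and MT1H at 19.7, 24.3, 14.7 and 2.5. MT1G and MT1H thus fell after 12 h, and MT1X was lower from 12 h on. The other listed genes of the family, MT1F with 23.8, 25.4, 3.9 and 14.1 RPKM and MT2A with 8.8, 13.0, 0 and 6.7, did not reach the ratio at 48 h and were lowest at 24 h.

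All 5 listed metallothioneins were lower than at 0 h in both the 24 h and the 48 h library. Their summed RPKM was 285.9, 232.3, 163 and 124.8 in time order. Their transcripts are short and alike, and reads can be split among them in different ways. The start sites of MT1G and MT1H lie 1749 bases apart and those of MT1H and MT1X 12656 bases apart, within chr16:56700642-56718108 of GRCh37.

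Metallothionein promoters carry metal response elements, the sites of the zinc-sensing factor MTF1. The 250 bases before the start of MT1H and MT1X are shown because both genes are members from 1 gene cluster, as given by RefSeq on the plus strand of GRCh38.p14 at chr16:56669564-56669813 and chr16:56682220-56682469. Capitals mark TGCACNC or TGCGCNC on either strand.
MT1H: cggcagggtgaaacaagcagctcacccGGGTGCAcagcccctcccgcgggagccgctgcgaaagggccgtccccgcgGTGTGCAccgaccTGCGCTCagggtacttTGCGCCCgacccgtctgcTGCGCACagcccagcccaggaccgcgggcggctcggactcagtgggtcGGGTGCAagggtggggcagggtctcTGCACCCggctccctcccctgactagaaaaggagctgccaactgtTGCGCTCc
MT1X: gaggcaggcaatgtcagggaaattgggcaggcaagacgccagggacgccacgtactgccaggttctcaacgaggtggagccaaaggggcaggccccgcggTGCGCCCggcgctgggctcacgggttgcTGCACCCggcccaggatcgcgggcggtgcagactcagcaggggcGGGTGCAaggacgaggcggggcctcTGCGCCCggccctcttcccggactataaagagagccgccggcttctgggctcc
MT1H held 8 matches and MT1X 4, some of them close together. Of the 8862 listed genes with a promoter sequence, 34.1% had at least 1 match in the same 250 bases and 0.463% had 4 or more. In the 112 members with a sequence the shares were 30.4% and 1.79%. MT1G, also a member from this cluster, is not shown. MT2A, which was no member, held 7. A match in these letters is no evidence of binding.

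Other stress genes were members as well. HSPA2, a member of the HSP70 family, was at 27.6, 21.5, 14.9 and 11.8 RPKM. EIF2AK4, the GCN2 kinase that senses amino acid shortage, was at 28.7, 21.9, 15.8 and 13.1. Each of these was lower at every successive time. DDIT4L, a relative of the mTOR inhibitor REDD1, was at 6.7, 7.0, 5.4 and 2.5.

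Of the 10 listed claudins, which form tight junctions, 3 were members. CLDN4 was at 38.5, 33.0, 26.7 and 15.9 RPKM, CLDN3 at 14.8, 8.8, 5.9 and 6.5, and CLDN10 at 12.6, 8.9, 10.3 and 5.8. The genes of CLDN3 and CLDN4 are neighbours on chromosome 7, with start sites 29272 bases apart. The family did not move as one, since CLDN6 was at 501.4, 483.3, 474.7 and 539.1, CLDN7 at 31.8, 31.2, 42.1 and 46.0, and CLDN11 went from 5.5 to 47.5. PARD6A, a scaffold of the apical polarity complex, was at 13.3, 7.2, 9.0 and 4.4.

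Genes known from neurons and secretory cells formed a further group. SNCB, β-synuclein, was at 7.9, 3.7, 2.5 and 0.4 RPKM, which is 5.06% of its 0 h level at 48 h. LRRN1, a leucine-rich repeat protein of the neuronal surface, was at 98.8, 76.3, 58.5 and 48.5. VSNL1, a neuronal calcium sensor, was at 53.4, 64.1, 36.7 and 23.5. CHGA, which encodes the granule protein chromogranin A, was at 15.0, 12.4, 12 and 5.2, and SYT13 of the synaptotagmin family at 10.5, 10.9, 9.8 and 3.7. SNCB was the only 1 of these 5 to reach the 0.5 ratio by 24 h.

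FXYD1 was low throughout. This regulator of the sodium pump was at 6.0, 5.9 and 1.5 RPKM and was listed at 0 at 48 h. KLK8, a secreted serine protease, was at 9.3, 4.8, 0.6 and 3.6, so its lowest value was at 24 h. In 8 members the 24 h library was below the 48 h library, KLK8 among them.

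Of the muscle-named genes, TNNI3 was among the 12 members with the lowest 48 h ratios. TNNI3, cardiac troponin I, was at 10, 12, 7.1 and 0.7 RPKM, ending at 7% of its 0 h level. CNN1, a calponin of smooth muscle, was at 6.2, 4.5, 7.5 and 2.0. The paralemmin gene PALM3 was at 32.3, 26.0, 20.5 and 14.5. All 6 members of the muscle and cytoskeleton group reached the ratio only at 48 h.

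Among mitochondrial genes the abundant ones were USMG5 and SLIRP. USMG5, a small subunit of ATP synthase now called ATP5MK, was at 166.8, 137.5, 86.6 and 74.5 RPKM. SLIRP, which stabilizes mitochondrial messenger RNA, was at 231.6, 201.6, 200.9 and 105.2. USMG5 was therefore lower in steps from 12 h on, and SLIRP had most of its fall after 24 h. BOLA1, involved in mitochondrial iron-sulfur cluster assembly, was at 22.4, 12.4, 8.3 and 7.1, and TSPO, an outer membrane protein, at 23.2, 18.0, 8.3 and 11.1. PAM16 of the inner membrane import motor was at 27.0, 34.0, 26.9 and 12.5.

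The metabolic enzymes fell by similar amounts. GCDH, glutaryl-CoA dehydrogenase, was at 23.5, 14.3, 21.4 and 10.8 RPKM. BLVRB, biliverdin reductase B, was at 30.1, 22.1, 26.5 and 12.8. Both were higher at 24 h than at 12 h. MECR, an enzyme of mitochondrial fatty acid synthesis, was at 11.2, 6.6, 6.2 and 4.9, and KHK, ketohexokinase, at 6.0, 2.9, 2.8 and 1.9.

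Ribosomal protein genes were represented by single members. RPS25 was at 119.9, 134.2, 107.9 and 59.3 RPKM and RPS27 at 3.3, 6.5, 0 and 0. These 2 and RPS26 were the members among 77 listed cytosolic ribosomal protein genes, whose median log2 change at 48 h was -0.23 and whose range ran from -2.10 to 1.69. Ribosomal protein genes have many near-identical processed pseudogenes, so the values of single genes are uncertain, and RPL13P5, itself such a pseudogene, was at 6.6, 3.2, 2.2 and 2.2. EEF1B2, a subunit of translation elongation factor 1, was at 40.6, 34.1, 22.9 and 17.3. The RNase P protein RPP25 was at 21.6, 20.1, 16.0 and 9.3.

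Small nucleolar RNA host genes had 2 members among 11 listed. SNHG12 was at 32.1, 21.1, 36.6 and 13.9 RPKM, unlike SNHG9, which was listed at 0 from 12 h. The 11 had a median log2 change of -0.34 at 48 h, and 9 of them were lower than at 0 h.

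Genes named for immune cells were expressed in these stem cells too. LCK, a SRC-family kinase best known from T cells, was at 48.1, 37.1, 38.4 and 19.6 RPKM. UBE2L6, the conjugating enzyme for the ubiquitin-like protein ISG15, was at 60.1, 52.4, 40.9 and 24.9. PSMB8, a subunit of the immunoproteasome, was at 6.6, 6.1, 6.3 and 1.0, and IFI27L2 at 23.1, 24.6, 21.2 and 9.1. AIF1, a macrophage-associated actin-binding protein, was at 21.8, 12.3, 15.5 and 7.9. Of the 9 genes in this group, 8 reached the ratio only at 48 h.

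Glycosylation and matrix genes had the smallest median change of the groups. GYLTL1B, a glycosyltransferase that extends the matriglycan of dystroglycan, was at 10.1, 6.3, 7.9 and 4.3 RPKM. B3GALT1, a galactosyltransferase, was at 19.5, 24.3, 12.1 and 7.2. PCOLCE, which enhances procollagen C-proteinase, was at 19.6, 11.6, 11.6 and 9.0, and the membrane-anchored metalloproteinase MMP17 at 12.7, 7.3, 6.1 and 5.0.

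Members outside these groups included genes of chromosome maintenance. SPC24, a subunit of the NDC80 kinetochore complex, was at 15.3, 8.1, 14.2 and 4.2 RPKM. NTHL1, a glycosylase of base excision repair, was at 44.3, 33.2, 21.0 and 19.3. OBFC2B, a single-stranded DNA binding protein now called NABP2, was at 30.7, 17.9, 22.6 and 12.7. The calcium-binding protein S100A6 was at 44.1, 32.2, 42.0 and 14.6. At 24 h SPC24 was still at 92.8% and S100A6 at 95.2% of the 0 h level.

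Further members are named here without a shared role. SERPINF1, a secreted serpin also called PEDF, was at 22.5, 20.2, 18.6 and 10.4 RPKM, and the zinc-finger genes ZBTB3 and ZSCAN16 were at 22.6, 17.5, 14.9 and 10.3 and at 6.4, 4.2, 3.4 and 1.7. OSBPL10, an oxysterol-binding protein relative, was at 21.1, 15.3, 13.4 and 10. The sialyltransferase gene ST6GAL2 was at 10.9, 8.7, 8.4 and 4.8, and the sulfotransferase gene CHST4 at 14.1, 8.4, 10.8 and 6.5. Loci without a gene name were also present. D21S2088E, a long noncoding RNA in the annotation, was at 41.1, 40.9, 23.5 and 16.3, and LOC100133957 (UXT-AS1) at 3.0, 6.1, 0 and 0.

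Some of the largest falls belong to entries that share exons with other entries. INO80B-WBP1, a readthrough transcript of 2 neighbouring genes, was at 11.1, 7.5 and 3.6 RPKM and was listed at 0 at 48 h. Over the same libraries the entry that joins INO80B with this transcript was at 5.0, 5.3, 12 and 12, and WBP1 was at 17.2, 12.5, 22.4 and 33.7. The 3 entries together summed to 33.3, 25.3, 38.0 and 45.7, so the locus as a whole was not lower at 48 h. TNFAIP8L2-SCNM1, another readthrough entry, was at 6.9, 5.3 and 3.9 and was listed at 0 at 48 h. In all, 9 members were listed at 0 at 48 h, and for these no fold is given.

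Members came from shorter gene models than the rest of the table. The merged exons of a member covered a median of 3151 bases, against 5341 for all 10827 listed genes found in the annotation. Models under 1000 bases made up 9.22% of the members and 1.46% of the listed genes. Among genes that could have been members, 10.3% of the 126 with such short models fell at least 2-fold at 48 h and 6.35% rose as much, against 1.44% and 1.79% of the 8882 with longer ones. The part of transcript length in the choice of members was not tested. Without the short models, 94 of 128 members (73.4%) were lower at 24 h than at 12 h, against 50.3% of all genes with longer models.

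Exons shared with another annotated gene on the same strand occurred in 19.9% of the members and 18.6% of the listed genes, and on the opposite strand in 38.3% and 43.5%. Protein-coding models were 91.5% of the members and 97.3% of the listed genes. By chromosome, 16 of 141 mapped members lay on 19 (11.3%, against 7.51% of listed genes) and 15 on 16 (10.6%, against 4.6%). The 3 metallothioneins are among those 15. Within 100000 bases of each other were the start sites of 9 pairs of members, 3 of them pairs of metallothioneins.

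Close to the start site, SP5 summits were about as frequent in members as in all listed genes. That set is wider than the genes that could have been members, since it also holds low genes, the families left out and the mutant table. With the list called against the Wnt3a-treated control, 3 of 141 members with a mapped start site had a summit within 10000 bases (2.13%, 95% Wilson interval 0.726 to 6.07%), against 165 of 10827 listed genes (1.52%). Within 2000 bases it was 2 members (1.42%) against 1.05%, and within 50000 bases 9 (6.38%, interval 3.39 to 11.7%) against 4.22%. With the list called against the buffer control the counts were 2 within 10000 bases (1.42%, against 1.36%), 11 within 50000 bases (7.80%, interval 4.41 to 13.4%, against 3.82%) and 16 within 100000 bases (11.3%, interval 7.11 to 17.6%, against 6.60%). Against the Wnt3a-treated control, the members' interval held the share of all genes at every distance. Against the buffer control it did so at 2000 and 10000 bases, and lay above that share at 50000 and 100000 bases. The median false discovery rate of the peaks was 69.6% in the list with the buffer control. It was 39.7% in the list with the Wnt3a-treated control, so many peaks of either list are uncertain. The intervals cover counting error only, and genes that share a neighbourhood can share a summit.

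**Figure D5:**
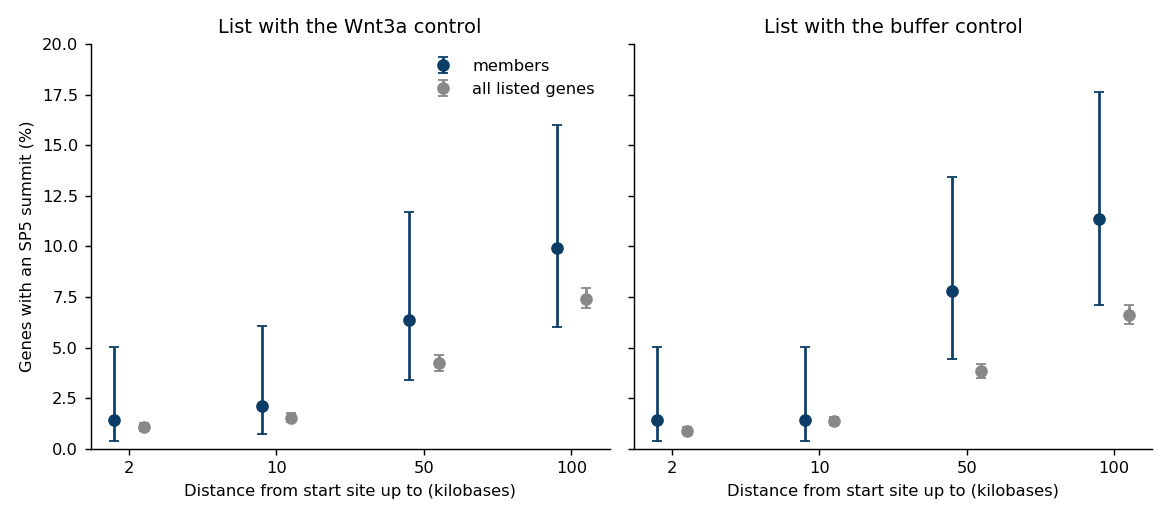
Points give the percent of genes with an SP5 summit within 2, 10, 50 or 100 kilobases of the start site, for the members and for all listed genes, with 95% Wilson intervals as bars, for peaks called against the Wnt3a-treated control (left) and the buffer control (right). The members' share lies at 2.13% against 1.52% within 10 kilobases on the left and at 7.80% against 3.82% within 50 kilobases on the right.

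For comparison, 5 of 88 lowered genes of the mutant table (5.68%, interval 2.45 to 12.6%) and 8 of 167 genes that rose at least 2-fold outside it (4.79%, interval 2.45 to 9.17%) had a summit within 10000 bases, called against the Wnt3a-treated control. Both intervals overlap that of the members. No test of these differences was made.

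The 3 members with a summit within 10000 bases differed in how well the peak stood out. The HES3 peak, at chr1:6305112-6306453, had 65 tags and an 8.78-fold enrichment over the Wnt3a-treated control, with a false discovery rate given as 0%, and 8.61-fold with 2.78% over the buffer control. No start site of another protein-coding gene was nearer than that of ICMT, 9894 bases away, whose RPKM was 78.2, 76.9, 67.9 and 73.5. The GYLTL1B peak, at chr11:45943230-45944394, had 44 tags and was 5.22-fold enriched, with a false discovery rate of 28.9%, and 4.82-fold with 70.5% over the buffer control. The AIF1 peak, at chr6:31587587-31588950, had 39 tags, 4.79-fold enrichment and a false discovery rate of 48%, and was called in the first list alone.

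The AIF1 summit lay 5509 bases from the AIF1 start site but 11 bases from that of PRRC2A, whose RPKM was 64.0, 62.6, 61.6 and 68.6. Next to GYLTL1B, PEX16 starts 3525 bases from the summit and was at 6.1, 5.8, 6.9 and 6.4. ICMT, PEX16 and PRRC2A had 48 h ratios of 0.941, 1.04 and 1.07, and no contrast with the members can be read from them, since the members were chosen for their ratio. INHBE came next among the members, with a summit 10028 bases from its start site in both lists, 3.95-fold enriched with a false discovery rate of 49.2% over the Wnt3a-treated control.

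GC boxes were about as common in members' promoters as elsewhere. In the 300 bases from 250 before to 50 after the start, taken from RefSeq for GRCh38.p14, GGGCGG occurred on either strand in 80 of 112 members with a sequence (71.4%, interval 62.5 to 79.0%) and in 72.2% of 8862 listed genes. GGGAGG occurred in 64.3% of the members and 58.8% of the listed genes, and GGGTGG in 36.6% and 37.6%. The median GC content of these windows was 63.5% in the members and 65.7% in the listed genes.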

How the data were processed

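RNA-Seq of the first WT series (4 libraries) was used. The authors aligned reads to hg19 (TopHat and Cufflinks in the methods, Bowtie 0.12.7, SAMtools 0.1.12a and Cuffdiff in the submitters' notes) and deposited RPKM rounded to 1 decimal. Labels name a directional library kit and the methods another procedure. Each gene as a fraction of its maximum was deposited as well. The mutant table, deposited as a fraction or a ratio, was used for its gene names alone. A table of the authors' own comparisons was not used. For ChIP-Seq the authors deposited MACS 1.4.2 peaks with a tag count, a p-value score, a fold enrichment and the false discovery rate (percent), called at a p cutoff of 1e-05 on 18641194 ChIP tags. The depth of the RNA libraries is unknown.

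Changes were ratios of (RPKM + 1). Members and lists were chosen with earlier results of these data known, and the role groups, the 12 to 24 h step and the length split after values were seen. Genes were named if they had the 12 smallest 48 h ratios, the 8 highest 0 h levels, the 4 smallest ratios in each symbol list, a nearby summit, the 4 smallest 12 h or 4 highest 24 h ratios, or lay at a threshold, and others were added for their role. Start sites came from GENCODE release 44 on GRCh37, with 9645 genes matched by symbol and 1182 by RefSeq synonym, and promoters from RefSeq. Shares carry 95% Wilson intervals (statsmodels 0.14.6). The selection was checked on simulated data. Columns of unlabelled samples left out numbered 0. The values of 1 member are not reported here.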

Additional observations from a re-analysis of the deposited data

How the results depend on the processing

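The number of members depended on the pseudocount and the RPKM minimum. A pseudocount of 5 left 35 genes, a minimum of 10 RPKM left 92, and dropping the minimum gave 222. The 35 and the 92 are members by construction, since both settings only tighten the rule. A pseudocount of 0.5 (180) or keeping the families (149) stayed within 1.5 times the 143. For the time of fall, a pseudocount of 5 gave 1 member by 12 h and 5 by 24 h. Counting instead the time at which the midpoint between the 0 h and 48 h values was passed gave 42 by 12 h, 53 by 24 h and 48 only at 48 h. The median log2 change at 12, 24 and 48 h was -0.33, -0.57 and -1.25 with a pseudocount of 0.5, -0.24, -0.38 and -0.82 with 5, and -0.55 at 24 h and -1.16 at 48 h with RPKM divided by the library sum. Summits called against the Wnt3a-treated control lay within 50000 bases in 9 members (6.38%, against 4.22% of all listed genes). Within 100000 bases it was 14 members (9.93%, against 7.42%). GGGTGG was in 41 member promoters. The rule ensures that all 72 named genes kept a negative change with either pseudocount. With a pseudocount of 5, 25 of them were at or below -1.

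No paired analysis was possible because each time has 1 library. The low median RPKM and the unknown depth limit the precision of every ratio.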
